A study of Homo sapiens with 102 samples.

Results

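The genes described here were 10 genes of DNA replication and nucleotide supply, MCM2, MCM3, MCM4, MCM5, MCM6, MCM7, PCNA, RRM1, RRM2 and TYMS, out of 24965 genes in the deposited table. They were taken by their Ensembl identifiers, and all 10 were present in the table. The table held read counts of Combi-Seq libraries of K562 cells, an established myeloid leukaemia line with the BCR-ABL fusion, which all groups therefore carry. In Combi-Seq, cells are enclosed in droplets with a pair of drugs and a pair of barcode fragments, and the joined barcode later names the drug pair of each read. All cells were incubated for 12 h. The drugs were DMSO (the solvent), imatinib (a BCR-ABL kinase inhibitor), trametinib (a MEK inhibitor) and the compound that the labels call YM115 and the study YM155, a survivin suppressant. Each of the 16 ordered drug pairs was made in 3 runs in the dT screen and in 3 runs in the Bio screen, in which the barcode fragments were swapped, which gave 48 in-screen libraries per screen. Each screen also had 3 separate DMSO controls, labelled with a single DMSO and no drug pair. A pair is written in the order of the labels, which do not tie a place in the pair to an injection source, and its drugs are referred to as first-listed and second-listed.

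MCM2 to MCM7 form the ring of the replicative helicase, which is loaded on origins before S phase and unwinds DNA at the fork. PCNA is the sliding clamp that holds polymerases on DNA. RRM1 and RRM2 are the large and the small subunit of ribonucleotide reductase, which makes deoxyribonucleotides, and TYMS (thymidylate synthase) makes thymidylate. In dividing cells these genes are known as targets of E2F factors, with transcripts that peak around the start of S phase.

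Promoters (RefSeq, GRCh38.p14, 250 bases before and 50 bases from the start) were found for 8 of the 10 genes. The letters TTTGGCGC, TTTCCCGC, TTTCGCGC or TTTGCCGC, which are spellings of the E2F motif, were searched on both strands, and matches may overlap. At least 1 match stood in a promoter of MCM2, MCM3, MCM6, MCM7, PCNA and TYMS, which makes 6 of 8, against 3.99% of the 27305 genes with a promoter entry. The match was not particular to these genes. Of 91 other listed genes of replication, nucleotide supply and the cell cycle, 26 (28.6%) had a match. By list this reached from 8 of 15 for licensing and helicase to 1 of 11 for mitosis. RRM1 and RRM2 had none of these letters in their windows. The 30 bases around a match in each of the 6 genes are shown because these genes shared this feature while their detection differed widely. Capitals mark the matching letters, read 5′ to 3′ on the strand of the gene, and the capitals of MCM2 and of MCM6 each hold 2 overlapping matches, 1 on each strand.
MCM2: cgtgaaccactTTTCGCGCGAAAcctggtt
MCM3: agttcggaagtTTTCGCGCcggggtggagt
MCM6: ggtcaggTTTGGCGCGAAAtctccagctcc
MCM7: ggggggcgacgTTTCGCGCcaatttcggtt
PCNA: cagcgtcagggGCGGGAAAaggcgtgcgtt
TYMS: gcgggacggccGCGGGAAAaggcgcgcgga
The windows lie at chr3:127598402-127598431 (plus), chr6:52284728-52284757 (minus), chr2:135876511-135876540 (minus), chr7:100101388-100101417 (minus), chr20:5126663-5126692 (minus) and chr18:657603-657632 (plus). MCM7, whose promoter also held GCGGGAAA farther upstream, and PCNA, which held those letters alone, stood at the opposite ends of the detection order given next. A match of letters is a description and not a site shown to be bound.

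In GRCh38, with the gene models of GENCODE 29, MCM2 lies on the plus strand at chr3:127598223-127622436, MCM4 at chr8:47960185-47978160, MCM5 at chr22:35400063-35425430, RRM1 at chr11:4094707-4138876, RRM2 at chr2:10120698-10131419 and TYMS at chr18:657604-673578. MCM3 lies on the minus strand at chr6:52264009-52284881, MCM6 at chr2:135839626-135876426, MCM7 at chr7:100092728-100101940 and PCNA at chr20:5114953-5126626. Exons of MCM7 overlap those of AP4M1 on the other strand, exons of TYMS those of ENOSF1 and TYMSOS, and exons of MCM2 those of TPRA1. Over all libraries AP4M1 had 1949 counts, ENOSF1 3414 and TPRA1 806. Whether counting used strand is not given in the sources used here, so that reads from a gene and its opposite partner may not have been told apart.

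Total counts of in-screen libraries lay between 127042 and 759756 in dT and between 17882 and 780143 in Bio. Mitochondrial genes took at most 7.33% of counts in any in-screen library, but 10.2% to 36.9% in the dT separate controls and 5.10% to 28.1% in the Bio separate controls. Tests used the in-screen libraries with at least 1000 detected genes, 48 in dT and 44 in Bio, so that Imatinib_Imatinib was lost from Bio with 1 library of DMSO_Trametinib. Of 12 markers of the K562 line all 12 had a count somewhere in dT, led by the fetal globin HBG2 in 48 of 48 libraries. Of the markers of other cell types, CDH1 was also found in 48 of 48 dT libraries at 129 ± 68.7 CPM (counts scaled to a library total of 1000000) and CD3D in 12, and the others in at most 3.

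Detection of the 10 genes was uneven in the dT screen, with 1 gene counted everywhere and most of the others in a minority of libraries. MCM7 had at least 1 count in 48 of 48 in-screen libraries (95% Wilson interval 92.6% to 100%). MCM5 followed with 25 libraries, MCM4 and TYMS with 23 each, RRM2 with 19, MCM2 with 17, RRM1 with 16 and MCM3 with 13. MCM6 was detected in 5 libraries and PCNA in 2 (4.17%, 95% Wilson interval 1.15% to 14.0%). Neighbours in this order had overlapping intervals except MCM7 and MCM5. Among all 19688 genes seen in dT, 1.27% were counted in every library and 11.1% in at least 50% of libraries, and of the 10 genes these were 1 and 2.

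In the Bio screen MCM7 again led and PCNA was again last. MCM7 was counted in 37 of 48 libraries, MCM4, MCM5 and RRM2 in 14 each, TYMS in 11, MCM2 in 10, RRM1 in 7, MCM6 in 5, MCM3 in 4 and PCNA in 1. No member was counted in every Bio library, as were 0.127% of all genes seen there, and MCM7 alone was counted in at least 50% of libraries, as were 5.25% of genes. In the 44 tested Bio libraries these shares of all genes were 0.535% and 5.89%, and MCM7 was again the 1 member in at least 50%. Where a member was found, it was seldom found in all runs of the same drug pair, and the map of runs with a count shows this for each gene. In dT, MCM7 had a count in all 3 runs of 16 of 16 pairs, MCM5 and TYMS in 2 pairs, MCM4 and RRM2 in 1, and the other 5 genes in 0. In Bio, MCM7 had a count in all 3 runs of 7 pairs and MCM4 of 1, while the other 8 genes had 0 such pairs.

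**Figure D1:**
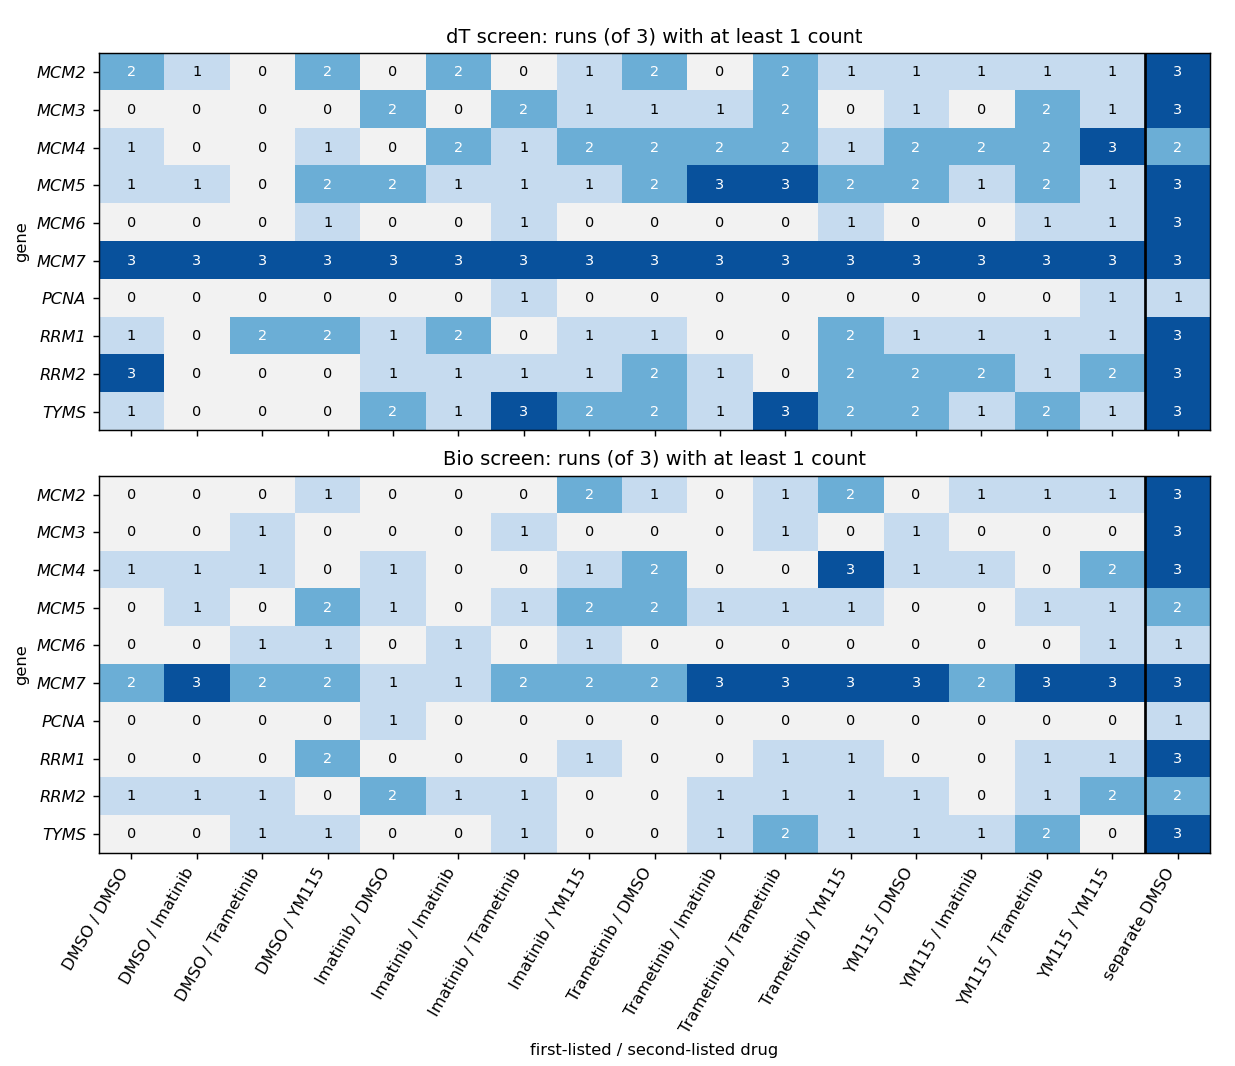
Number of runs, of 3, with at least 1 count of each gene (vertical) for each ordered drug pair and the separate DMSO controls (horizontal), in the dT screen (top) and the Bio screen (bottom). Darker cells mean more runs. The MCM7 band is filled in all 16 dT pairs, the PCNA band is empty in 14 of them, and the column of the separate controls is filled for most genes.

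Where a gene was found, its counts differed widely. PCNA had 187 counts in run 1 of Imatinib_Trametinib, 1 count in run 1 of YM115_YM115 and 0 in the other 46 dT libraries, so that 99.5% of its dT counts came from a single library. MCM6 had 67 of its 88 dT counts in run 1 of YM115_Trametinib (76.1%). MCM3 had 241 of 440 in run 3 of YM115_Trametinib (54.8%) and 143 in run 3 of Imatinib_Trametinib. These genes thus had means carried by single libraries. The highest library held 28.9% of the dT counts of MCM2, 24.5% of TYMS, 21.4% of RRM1, 17.4% of MCM5, 17.3% of MCM4, 15.9% of RRM2 and 5.65% of MCM7.

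Without MCM7, 33.1% of the gene by library values in dT were above 0, and of these 36.4% were at least 50 counts, against 30.6% of the nonzero values over all genes. In Bio 18.5% were above 0, of which 36.3% were at least 50 counts, against 31.1% over all genes. The separate controls had fewer zeros. In the dT controls 88.9% of these values were above 0 and 29.2% of those were at least 50 counts (8.36% over all genes), and in the shallow Bio controls 77.8% were above 0 and 0 reached 50 counts (1.59% over all genes). In the screens the 10 genes thus resembled the whole table in having high counts between many zeros. Each library pools many cells, so that fewer cells with a transcript and less transcript per cell cannot be told apart.

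**Figure D2:**
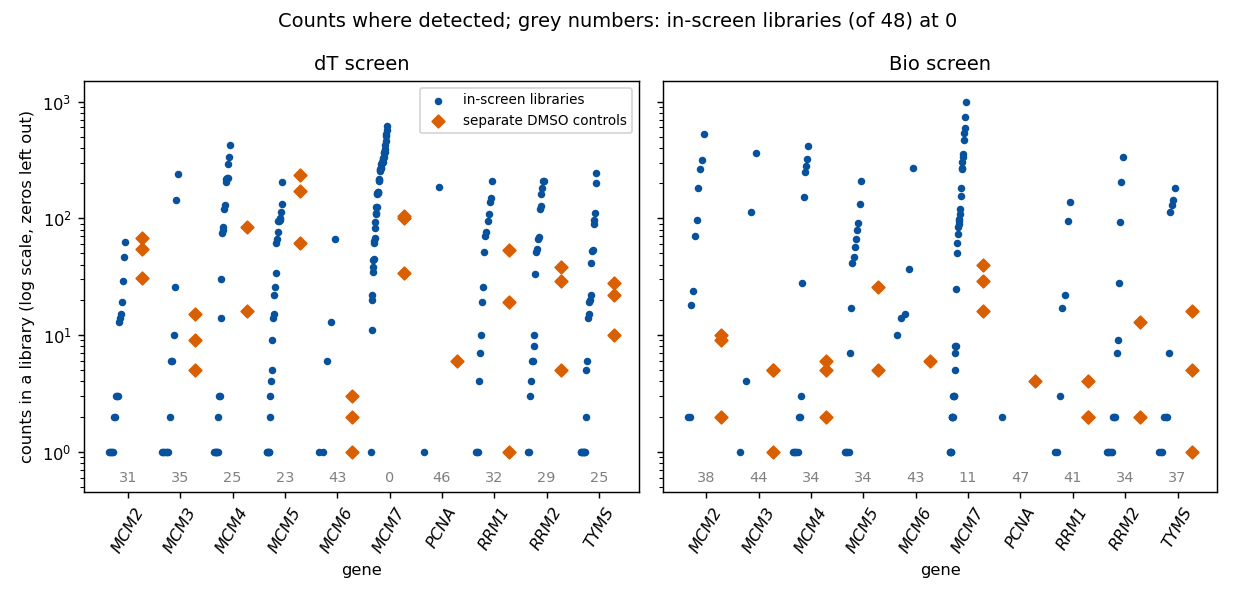
Counts of each gene (horizontal) in the libraries where it was found (vertical, log scale), for in-screen libraries (circles) and separate DMSO controls (diamonds), in dT (left) and Bio (right). Grey numbers give the in-screen libraries, of 48, at 0, from 0 for MCM7 to 46 for PCNA in dT, and high counts stand beside many zeros for the genes other than MCM7.

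MCM7, a subunit of the helicase ring, was the most abundant of the 10 genes in the screens. In dT it had 672 ± 468 CPM (SD, n = 48), with a lowest value of 3.93, a median of 611 and a highest of 1880 CPM, which correspond to 1 to 616 counts. Mean levels in dT were 124 ± 242 CPM for MCM4, 89.9 ± 203 for RRM2, 85.4 ± 189 for MCM5, 72.0 ± 188 for RRM1 and 45.4 ± 101 for TYMS. The SDs of these genes exceeded their means, and their levels were not separable. MCM3 had 19.8, MCM2 16.4, PCNA 10.2 and MCM6 4.64 CPM. The study describes 3′ end libraries, so levels are not scaled by gene length here. MCM7 supplied 58.1% of the counts of the 10 genes in dT and 49.8% in Bio.

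By drug pair, MCM7 in dT was highest with Imatinib_YM115, where runs 1 to 3 had 1880, 1112 and 1314 CPM (mean 1436 ± 398). It was lowest with YM115_YM115, at 23.8, 408 and 241 CPM (224 ± 193), and these 2 groups of runs did not overlap. In the in-screen solvent reference DMSO_DMSO the runs had 355, 1193 and 101 CPM (550 ± 571), a span that held at least 1 run of every other pair, of Imatinib_YM115 only run 2. In DMSO_Trametinib the runs reached from 3.93 to 1463 CPM. Runs of a pair thus differed by as much as pairs did.

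In Bio, MCM7 was highest in YM115_DMSO, at 31.2, 2072 and 2863 CPM, and in YM115_Imatinib, at 0, 2036 and 2581 CPM. It was low in all 3 runs of Trametinib_Trametinib, at 9.48, 13.9 and 11.4 CPM, and of Trametinib_DMSO, at 31.0, 3.37 and 0 CPM. In DMSO_DMSO the runs had 2627, 6.79 and 0 CPM. The solvent reference of Bio therefore covered nearly the whole span of the screen.

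**Figure D3:**
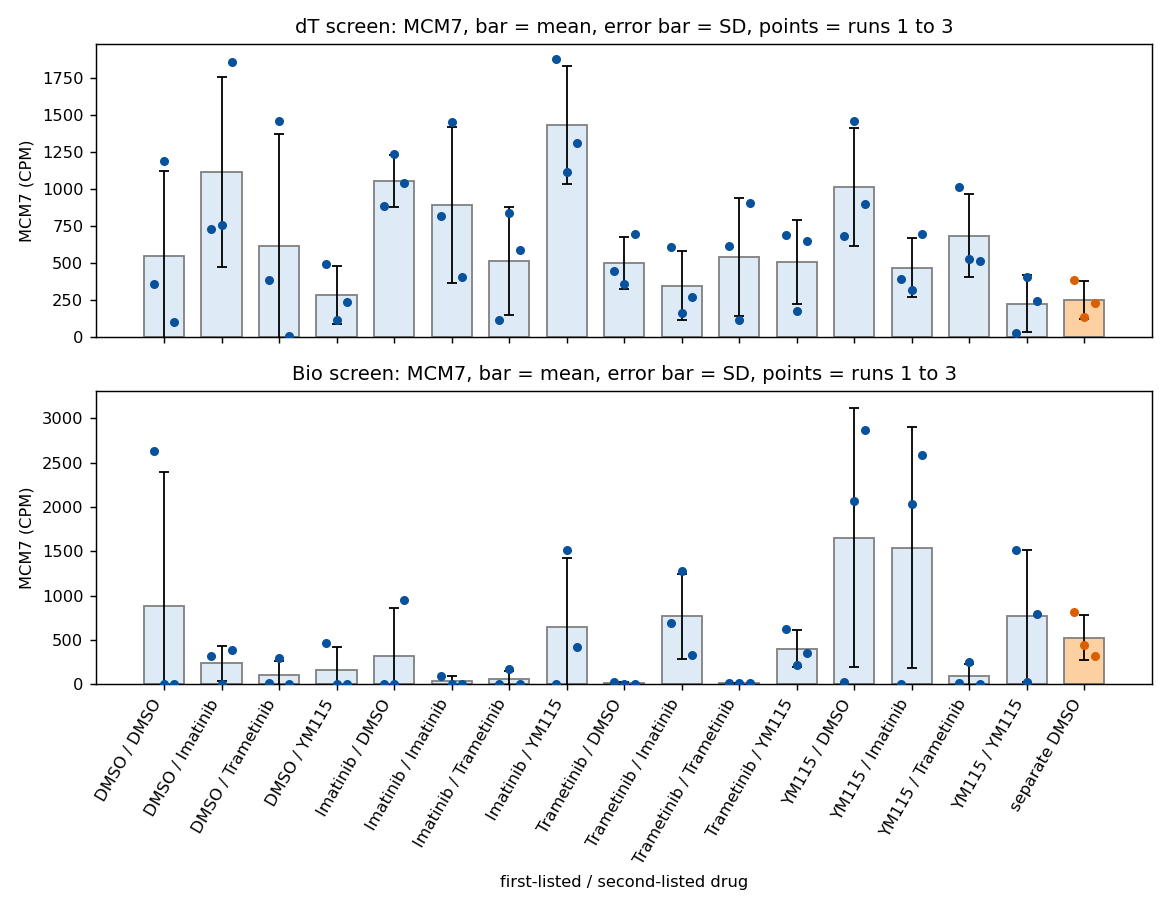
MCM7 in CPM (vertical) for each ordered drug pair and the separate DMSO controls (horizontal), in dT (top) and Bio (bottom). Bars are means of 3 runs, error bars are SD and end at 0 where they would fall below it, and points are runs 1 to 3 from left to right. In dT the runs of DMSO_DMSO span 101 to 1193 CPM, and most pairs lie inside that span.

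The other helicase subunits were not counted together with MCM7 in equal measure. All of MCM2 to MCM7 were found in 1 of 48 dT libraries, run 1 of YM115_Trametinib with 3, 1, 130, 15, 67 and 525 counts in the order of their numbers, and in 0 of 48 Bio libraries (a count of 0 allows a share of up to 6.25%). The median dT library had 3 of the 6. In the separate controls all 6 were found in 2 of 3 dT and in 1 of 3 Bio libraries. MCM4 in dT had at least 50 counts in 12 libraries, which came from 2 of the 3 runs, and its run means were 190, 182 and 1.71 CPM. MCM5 in dT had run means of 23.1, 79.0 and 154 CPM, and its 205 counts in run 3 of DMSO_DMSO were its highest in-screen value in dT. MCM2 had low counts in dT, with a highest value of 63 counts in run 3 of Trametinib_Trametinib, and high counts in Bio, up to 531 in run 1 of Trametinib_DMSO. By run means, MCM2 was 16.4 ± 5.27 CPM in dT and 111 ± 103 CPM in Bio (n = 3 runs each) with no overlap, and the exact permutation test gave p = 0.1, the smallest value that 3 against 3 allows (Benjamini-Hochberg adjusted 0.333 over the 10 genes). MCM7 and RRM1 also had run means that did not overlap between screens, with higher means in dT, although for RRM1 the nearest runs were 63.3 CPM in dT and 63.2 CPM in Bio. MCM7 had 672 ± 51.8 CPM in dT and 519 ± 63.8 CPM in Bio, and RRM1 72.0 ± 8.33 and 30.6 ± 31.6 CPM (exact permutation p = 0.1 and adjusted 0.333 for both). This design cannot reach 0.05. Of 22396 genes with a count in these libraries, 8.86% had run means that did not overlap and 7.55% did so with higher values in dT.

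RRM1 and RRM2, the subunits of ribonucleotide reductase, were found together in some dT libraries and in no Bio library. In dT both were found in 10 libraries, RRM1 alone in 6, RRM2 alone in 9 and neither in 23. In Bio both were found in 0 of 48 libraries (up to 6.25% allowed), RRM1 alone in 7 and RRM2 alone in 14. Both were found in 3 of 3 dT separate controls and in 2 of 3 Bio separate controls. The highest dT counts of RRM1 were 207 in run 1 of DMSO_Trametinib, 148 in run 3 of Trametinib_DMSO and 139 in run 2 of YM115_Imatinib. RRM2 had 210 counts in run 2 of Imatinib_YM115 and 208 in run 1 of Trametinib_YM115, and 119, 161 and 6 counts in the 3 runs of DMSO_DMSO, the only dT pair in which all runs held it. In Bio, 3 libraries had at least 50 counts of RRM2, and all 3 had imatinib as the first-listed drug, with 204 and 93 counts in runs 2 and 3 of Imatinib_DMSO and 333 in run 1 of Imatinib_Imatinib, a library of 30359 counts with 472 detected genes that was not tested.

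TYMS, the thymidylate enzyme, was found in 23 dT libraries, with its highest counts in run 1 of YM115_DMSO (244) and run 1 of YM115_Imatinib (201). Its dT run means were 113, 1.62 and 22 CPM, so that run 1 carried most of it. In Bio, 4 libraries had at least 50 counts of TYMS, and all 4 held YM115. They were run 2 of Trametinib_YM115 with 180 counts, run 1 of YM115_DMSO with 143, run 1 of YM115_Trametinib with 130 and run 3 of YM115_Imatinib with 114. No tested Bio library without YM115 had more than 7 counts, but 15 of the 21 with YM115 had 0, so that the groups overlapped at 0.

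In the separate DMSO controls nearly all of the genes were counted, at more even levels. The 3 dT controls held 10, 8 and 9 of the 10 genes and the Bio controls 10, 8 and 6. In dT 8 of the 10 genes were counted in all 3 controls and 9 in at least 50% of them, beside 29.8% and 56.9% of all genes seen there, and in Bio 6 and 8, beside 25% and 49.5%. In the dT controls MCM5 led in CPM with 901, 238 and 377 (505 ± 350), and MCM7 had 384, 132 and 229 (248 ± 127). MCM5 took 38.8% of the counts of the 10 genes there and MCM7 19.8%. The lead of MCM7 in the dT screen was thus not seen in these controls. In the Bio controls MCM7 had 811, 448 and 321 CPM (527 ± 254) from 29, 40 and 16 counts, and took 39.4% of the counts. PCNA remained rare, with 6, 0 and 0 counts in the dT controls and 4, 0 and 0 in the Bio controls.

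A fit per screen with the separate controls added compared them with DMSO_DMSO. The number in the label of a control was taken as its run in the run block, which the labels do not state. Of 9 members tested in dT, 0 passed an adjusted p of 0.05 (edgeR, quasi-likelihood test, adjusted by Benjamini-Hochberg over all genes), where 0.116% of 6917 genes did. DESeq2 called 0. Unadjusted, 2 of the 9 had p under 0.05. These were MCM3, with 9, 5 and 15 counts in the separate controls and 0 in every run of DMSO_DMSO, and TYMS. TYMS had 28, 10 and 22 counts in the separate controls and was also counted in 1 of the 3 runs of DMSO_DMSO. No fold is given for a gene at 0 throughout DMSO_DMSO. The log2 fold change, separate control against DMSO_DMSO, was -0.60 for MCM7 (SE 1.16, adjusted p = 0.786), 2.18 for MCM5 (SE 2.89, adjusted p = 0.662) and -2.08 for RRM2 (SE 3.00, adjusted p = 0.692). For TYMS it was 5.24 (SE 2.6, adjusted p = 0.296). In Bio, 0 of 9 passed, where 0.0432% of 4631 genes did. There 2 of the 9 had an unadjusted p under 0.05 (RRM1 and MCM5), and DESeq2 called 3 (MCM2, MCM3 and TYMS), where it called 18.0% of all genes. In dT DESeq2 called 8.53% of all genes. These controls also differed from the in-screen libraries in their mitochondrial share, and the part of that in the result was not tested.

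The number of members found per library moved with depth. In dT it was 3.98 ± 1.54 of 10 (1 to 7), and in Bio 2.44 ± 1.47 (0 to 5), with 6 Bio libraries at 0. Over libraries, Pearson's r between the number found and log2 total counts was 0.50 in dT (n = 48) and 0.31 in Bio (n = 44), given as a description, since detection and depth share the same counts. Thinned to 100000 counts, dT libraries held an expected 3.23 ± 1.29 members, Bio libraries 2.14 ± 1.16 (n = 41, with 7 shallower libraries left out) and the dT separate controls 8.15 ± 1.51 (n = 3). At that depth all genes numbered 2596 ± 445 in dT and 7100 ± 1539 in the separate controls. The gap between the dT screen and its 3 controls thus remained at equal read counts, for the members as for the table as a whole. The median counts per detected gene were 96.0 in the dT screen and 28.4 in its controls. Equal reads need not mean equal numbers of molecules, and the gap at equal molecules was not tested. All 3 Bio separate controls had fewer than 100000 counts.

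**Figure D4:**
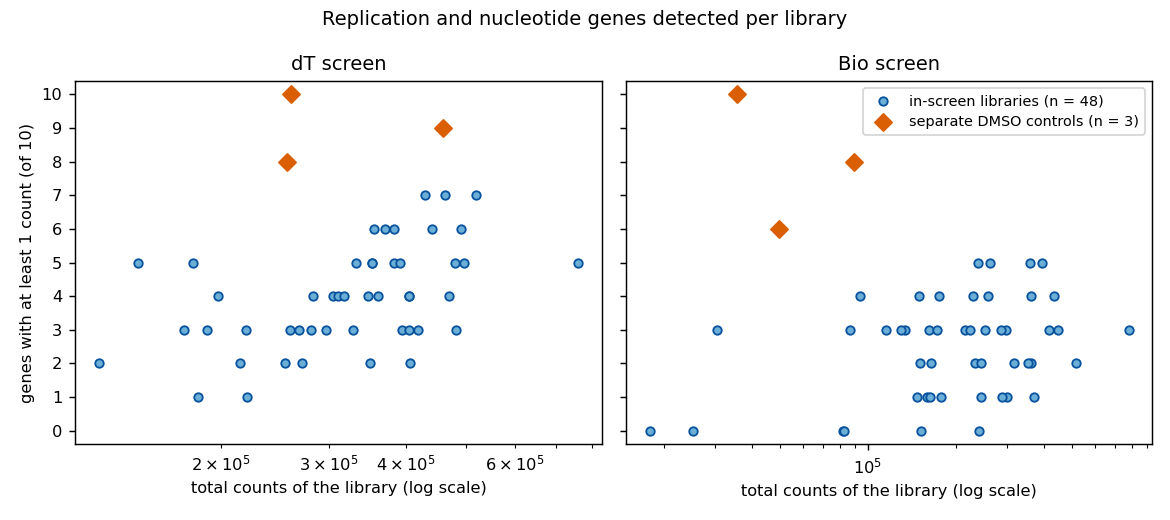
Number of the 10 genes with at least 1 count (vertical) against the total counts of the library (horizontal, log scale), for in-screen libraries (circles, n = 48 per screen) and separate DMSO controls (diamonds, n = 3), in dT (left) and Bio (right). In-screen libraries hold at most 7 genes in dT and 5 in Bio, and the controls hold 6 to 10 at similar or lower depth.

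By first-listed drug in dT, libraries with DMSO were the shallowest, at 198556 ± 41176 counts, and held 2.75 ± 1.36 members (n = 12). With imatinib, trametinib and YM115 first, they held 4.0 ± 1.48, 4.58 ± 1.31 and 4.58 ± 1.38. After thinning these means were 2.56, 3.00, 3.79 and 3.59, so that the order held DMSO lowest with a smaller gap. With DMSO first, MCM3 was counted in 0 of 12 libraries (up to 25% allowed), TYMS in 1, MCM4 in 2, RRM2 in 3, MCM5 in 4, and MCM2 and RRM1 in 5 each. For MCM2 and RRM1 no other first-listed drug had more libraries. By second-listed drug in dT the means lay between 3.25 for imatinib and 4.33 for DMSO and YM115. In Bio the thinned means by first-listed drug were 2.06 for DMSO, 1.96 for imatinib, 2.23 for trametinib and 2.25 for YM115, so that DMSO was not lowest there.

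The summed level of the 10 genes overlapped between the screens and the separate controls. In dT the sum was 1140 ± 561 CPM (lowest 43.2 in run 3 of DMSO_Trametinib, median 1109, highest 2931 in run 2 of YM115_DMSO), which is 0.114% of counts. The separate dT controls had 670, 1046 and 2133 CPM (1283 ± 760), inside the in-screen span. In the 44 tested Bio libraries the sum was 1031 ± 975 CPM (0 to 3595), and in the Bio controls 1270 ± 603. Over all 48 Bio libraries it was 1390 ± 2896 CPM because of run 1 of Imatinib_Imatinib, which had 19928 CPM from 269 counts of MCM6, 333 of RRM2 and 3 of MCM7. Among dT pairs, the mean sum was highest with Imatinib_YM115 (1794 ± 418 CPM) and lowest with Trametinib_Imatinib (518 ± 438), and DMSO_DMSO had 1533 ± 649. With each drug against without it in dT, the sums were 1085 ± 526 and 1183 ± 594 CPM for imatinib, 991 ± 461 and 1257 ± 611 for trametinib, and 1198 ± 629 and 1096 ± 511 for YM115 (n = 21 and 27). The libraries with and without a drug overlapped widely. By run, the dT sum was lower with imatinib and with trametinib in 3 of 3 runs and higher with YM115 in 3 of 3. In Bio it was 745 ± 780 CPM with trametinib (n = 20) and 1270 ± 1070 without (n = 24), and higher with trametinib in 0 of 3 runs. With YM115 it was 1305 ± 966 CPM (n = 21) and 782 ± 934 without (n = 23), and higher with YM115 in 3 of 3 runs. With imatinib it was 1082 ± 1059 CPM (n = 18) and 996 ± 932 without (n = 26), and higher in 2 of 3 runs. No test is given for this sum over chosen genes.

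To ask whether a drug changed any of the genes, each screen was fitted with 1 term per drug and a run block, and 7 members passed the filter on low counts in dT and 4 in Bio. MCM3, MCM6 and PCNA were tested in neither screen. In dT 0 of 7 passed an adjusted p of 0.05 for any drug, where 2.88% of 3930 genes passed for imatinib, 1.37% for trametinib and 2.62% for YM115. Unadjusted, 0, 1 and 0 members had p under 0.05 for the 3 drugs, and DESeq2 called 0 for each. The smallest p was that of TYMS with trametinib, with a fitted log2 value of 2.93 (SE 1.12) and an adjusted p = 0.286. TYMS was counted in 13 of 21 dT libraries with trametinib, at 38.7 ± 69.5 CPM, and in 10 of 27 without, at 50.6 ± 120 CPM, so that the fitted value and the means differ in sign, and without the run block the log2 fold change was -0.01. RRM1, MCM5 and RRM2 had fitted values of -4.10 (SE 2.36), -2.64 (SE 1.43) and -2.22 (SE 1.49) with imatinib, with adjusted p of 0.459, 0.416 and 0.575. The median over the 7 members was -1.71 for imatinib, -0.35 for trametinib and -0.14 for YM115, beside 0.07, 0.23 and 0.22 over all genes tested.

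MCM7, with a count in every dT library, had the smallest errors. Its log2 fold changes were 0.55 (SE 0.46) with imatinib, -0.23 (SE 0.46) with trametinib and 0.12 (SE 0.42) with YM115, and the signs of the last 2 turned under other settings. In CPM it was 833 ± 506 with imatinib and 547 ± 404 without, 531 ± 348 with trametinib and 782 ± 524 without, and 660 ± 477 with YM115 and 682 ± 470 without. It was higher with imatinib in 3 of 3 runs and higher with trametinib in 0 of 3, with adjusted p of 0.708 and 0.931.

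In Bio 0 of 4 members passed for any drug, where 2.34%, 1.94% and 2.74% of 1754 genes passed for imatinib, trametinib and YM115. Unadjusted, 1 member had p under 0.05, MCM2 with YM115, whose fitted log2 value was 5.75 (SE 1.96) with an adjusted p = 0.0951, and DESeq2 called 0. MCM2 was counted in 8 of 21 libraries with YM115 (129 ± 233 CPM) and in 2 of 23 without (89.7 ± 429 CPM). Of its 6 values of at least 50 counts, 5 were with YM115, and the highest, 531 counts in Trametinib_DMSO, was without. MCM4 had 3.60 (SE 2.17, adjusted p = 0.431) with YM115. MCM7 had 1.01 (SE 1.17), -1.67 (SE 1.15) and 1.12 (SE 1.19) for the 3 drugs, with wider errors than in dT.

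**Figure D5:**
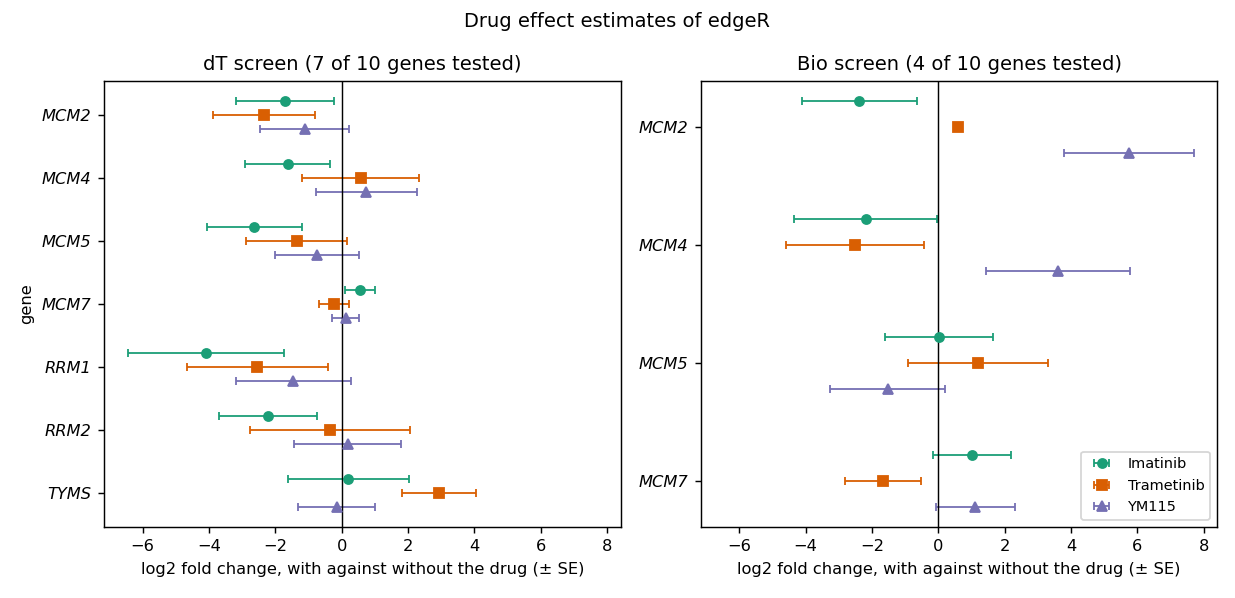
Log2 fold change (horizontal) of each gene tested (vertical) with against without imatinib (circles), trametinib (squares) and YM115 (triangles), in dT (left, 7 genes) and Bio (right, 4 genes), with SE as bars. MCM2 with trametinib in Bio has no bar because its test statistic was near 0. None of these estimates passed an adjusted p of 0.05, and MCM7 in dT has the shortest bars.

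The screens differed for 1 member and drug. In 1 fit of both screens 7 members were tested, and TYMS passed for YM115 with a difference of 6.66 in log2 fold change, Bio minus dT (SE 1.85, adjusted p = 0.0162), where 6.59% of 4705 genes passed. Its level was 118 ± 259 CPM with YM115 and 1.48 ± 4.29 without in Bio, and 62.5 ± 130 and 32.0 ± 70.3 CPM in dT. It rested on the 4 Bio libraries named above, and leaving out any 1 run left 0 members called. MCM2 differed by 7.02 (SE 2.4, adjusted p = 0.0607) and RRM2 by -4.0 (SE 1.76, adjusted p = 0.167) for YM115. For imatinib and trametinib 0 of 7 members passed, 0 had an unadjusted p under 0.05 and DESeq2 called 0, where 5.84% and 4.59% of all genes passed.

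A joint test over all ordered pairs asked whether a gene differed between any conditions. In dT 0 of 9 members passed, where 0.303% of 6263 genes did. Of these 9, 3 had an unadjusted p under 0.05 (MCM3, RRM1 and RRM2), DESeq2 called 0, and without the run block 2 passed (MCM3 and MCM4), where 35.8% of all genes then passed. In Bio 2 of 8 passed, MCM2 (adjusted p = 0.0385) and MCM4 (adjusted p = 0.0378), where 22.9% of 4888 genes did, so that the share of members lay near that of all genes. Without the run block 5 of the 8 passed in Bio, where 70.7% of all genes then passed. DESeq2 called 0 of the 8, and also 0 of all genes. Leaving out any 1 run left 0 members called. Over all genes, calls in this test ranged from 0 to 3458 across the alternatives. MCM4 in Bio had all of its 5 values of at least 50 counts in 5 different pairs, of which 4 held YM115.

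The listed order of drugs was tested jointly over the 3 drugs. In dT 0 of 7 members passed, where 10.7% of 3930 genes did, 2 had an unadjusted p under 0.05 (TYMS, adjusted p = 0.0782, and RRM2, adjusted p = 0.119), and DESeq2 called 0. In Bio 0 of 5 passed, where 21.1% of 2112 genes did, and 2 had an unadjusted p under 0.05 (MCM4 and MCM5). DESeq2 called 0 of the 5, and 7 of all genes. Without the run block MCM2 passed, as did 14.1% of all genes. The products of drug pairs were tested for 9 members in dT and 7 in Bio, and 0 passed for any pair. Of all genes 0.447%, 0.431% and 0.527% passed in dT, and 0.379%, 0.0292% and 0.525% in Bio, for imatinib with trametinib, imatinib with YM115 and trametinib with YM115. Unadjusted p under 0.05 occurred for 1 member in 1 of 3 pairs in dT and for 1 member in each of 2 pairs in Bio, and DESeq2 called 1 member in each of 5 of the 6 products. DESeq2 called, of all genes, 8.32% (dT) and 12.5% (Bio) for imatinib with trametinib, 7.31% and 13.7% for imatinib with YM115, and 6.53% and 13.9% for trametinib with YM115. Genes without an adjusted p from DESeq2 count as not called in each such share.

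Other genes of the same processes were described from 6 lists with 106 genes in the table. In dT the most widely counted genes for licensing and helicase were CDT1 (37 libraries), CDC45 (30) and ORC6 (21), and for polymerases and fork POLE4 (45), POLD2 (41) and POLE (32). For nucleotide supply these were PAICS (43), DTYMK (41) and SHMT2 (36), and for chromatin behind the fork NASP (47), DNMT1 (34) and ASF1B (15). For E2F and cyclin control these were CCND3 (39), E2F4 (38) and CDK6 (28), and for mitosis CDC20 (42), MKI67 (40) and CENPF (39). The 106 genes had 0 that were counted in all 48 dT libraries, as MCM7 was.

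Drug tests of these lists gave few calls. For imatinib and trametinib 0 of 47 tested list genes passed in dT and 0 of 20 in Bio, while 6 and 10 of them in dT and 2 and 3 in Bio were under 0.05 before adjustment, and DESeq2 called 3 and 2 in dT and 0 and 2 in Bio. Of all genes DESeq2 called 3.92% for imatinib, 2.32% for trametinib and 3.59% for YM115 in dT, and 6.67%, 5.36% and 8.38% in Bio. For YM115 in dT, 1 of 47 passed, beside 2.62% of all genes. This was the mitotic kinase AURKB, with a fitted log2 value of 4.73 (SE 1.29, adjusted p = 0.0323). AURKB was counted in 7 of 21 libraries with YM115 (32.8 ± 69.9 CPM) and 4 of 27 without (6.24 ± 17.8 CPM). AURKB passed in 4 of 8 alternatives, with adjusted p (edgeR or DESeq2) from 0.0227 to 0.631, the highest without run 3. For YM115 in Bio, 2 of 20 passed, beside 2.74% of all genes. GART, an enzyme of purine synthesis, rose by 7.24 (SE 1.58, adjusted p = 0.00464), and DNMT1, the maintenance DNA methyltransferase, by 5.17 (SE 1.43, adjusted p = 0.0322). GART was counted in 7 of 21 libraries with YM115 and 3 of 23 without, and DNMT1 in 7 and 5. In dT the fitted values of GART and DNMT1 for YM115 were 0.21 and -0.65. Over alternatives the adjusted p of GART lay between 0.000935 and 0.207 and that of DNMT1 between 0.00654 and 0.628, both highest without run 1. AURKB was not tested in Bio. DESeq2 called AURKB and PLK1 in dT, and CENPF and LIG1 but not DNMT1 in Bio, where it gave no adjusted p for GART.

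In the joint test over conditions, 0 of 70 list genes passed in dT (32 at an unadjusted p under 0.05, 0 by DESeq2) and 14 of 59 in Bio (23.7%, beside 22.9% of all genes). The 12 with the smallest p were NASP, RNASEH2C, CDT1, ATIC, GINS2, CBX5, RNASEH2A, POLE4, CENPF, DUT, CDK4 and TPX2, with adjusted p from 0.00149 (NASP) to 0.0463 (TPX2). By list these calls, POLE and E2F2 included, were 2 of 9 for licensing and helicase, 4 of 14 for polymerases and fork, 2 of 15 for nucleotide supply, 2 of 6 for chromatin behind the fork, 2 of 6 for E2F and cyclin control and 2 of 9 for mitosis. Against the separate controls 0 of 75 list genes passed in dT and 0 of 53 in Bio, with 15 and 8 at an unadjusted p under 0.05 and 4 and 10 called by DESeq2, beside the 8.53% and 18.0% of all genes given above.

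The genes whose log2 CPM followed the summed level of the 10 genes most closely over the 48 in-screen dT libraries were RPS3 (Pearson's r = 0.47), RPS25 (0.45), HSP90AB3P (0.43), NMU (0.42) and HSP90AB1 (0.41), of 2185 genes with a median r of 0.03. In the 44 tested Bio libraries their r lay between -0.15 and -0.06. The libraries share cells, depth and scaling within a screen, and these values are a description. HSP90AB3P is a pseudogene copy of HSP90AB1, and reads of the pair may have been split in counting.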

How the data were processed

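The authors deposited whole-number read counts per gene for the libraries of K562 cells, aligned with STAR 2.4.2a to GRCh38 per the labels and the submitters' processing notes. The annotation, the strand setting and any collapsing by molecular identifiers are not given in the sources used here. Library preparation used oligo-dT priming, template switching and Tn5. All 24965 rows named a gene, 24539 had a symbol, and 0 columns belonged to other samples.

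Samples were grouped by screen, ordered drug pair and run from the labels. The separate controls are labelled with a number and no run, and this number was taken as their run. The members and the gene lists were chosen with earlier results of these data known. Libraries with at least 1000 detected genes and at most 15% mitochondrial counts were tested in the drug comparisons, which kept 48 of dT and 44 of Bio, and all 3 separate controls per screen entered their own comparison. Counts were tested with edgeR 4.0.16 in R 4.3.3 (quasi-likelihood test, TMM scaling, filterByExpr on each design, run as a block, Benjamini-Hochberg adjustment over all genes tested, threshold 0.05), and DESeq2 1.42.0 was an alternative. Scripts were tested on simulated data. Run means of the screens were compared by a two-sided exact permutation test in scipy 1.17.1. CPM are counts scaled to a library total of 1000000. Where 0 libraries were found, the share allowed was up to 3 divided by the number of libraries. This limit and the intervals treat libraries as independent and cover counting error only. Replicate runs were independent experiments per the study's methods. The run number was kept as a block because the study removed replicate effects. The mean correlation of residuals between libraries of the same run was 0.0244 in dT and 0.0274 in Bio, and between runs -0.0122 and -0.0137. The mean of each condition was removed first, so the values between runs largely follow from those within runs and are no separate comparison.

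Genes named from the 6 lists were those past the threshold, at most 12 per comparison by p, and the 3 most widely counted per list. Alternatives covered scaling, filters, the block, each run left out, library depth, the number of drug portions, single-drug conditions and DESeq2.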

Additional observations from a re-analysis of the deposited data

Results flagged for a closer look

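The effect of a drug differed between the screens, by a test of the difference itself in a fit of both screens (edgeR's quasi-likelihood test, adjusted p over 4705 genes), for TYMS, 1 of 7 members tested, and for 10 of the 58 list genes tested. Of the list genes 5 passed for YM115, 4 for trametinib and 1 for imatinib, while 6.59%, 4.59% and 5.84% of all genes passed, and nothing particular to these genes is read from the calls. Differences are in log2 fold change, Bio minus dT. For YM115 the difference was 6.66 for TYMS (SE 1.85, adjusted p = 0.0162), 7.32 for GART (SE 1.75, adjusted p = 0.00568), 9.37 for the purine enzyme ATIC (SE 2.73, adjusted p = 0.0236), 5.96 for DNMT1 (SE 1.78, adjusted p = 0.0281), 5.65 for the histone chaperone subunit CHAF1A (SE 1.74, adjusted p = 0.034) and -6.51 for IMPDH1, an enzyme of guanine nucleotide synthesis (SE 1.83, adjusted p = 0.0177). For trametinib it was 6.12 for thymidine kinase TK1 (SE 1.81, adjusted p = 0.0308), 6.20 for PAICS (SE 1.89, adjusted p = 0.0387), -8.31 for RNASEH2C (SE 2.41, adjusted p = 0.028) and -4.01 for the histone chaperone ASF1B (SE 1.25, adjusted p = 0.0459). For imatinib it was -5.22 for CBX5, a heterochromatin protein (SE 1.69, adjusted p = 0.0488). The screens were prepared with swapped barcode fragments and differ in depth and detection, and the part of these in the differences was not tested.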

How the results depend on the processing

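Zeros limit these results, since all members but MCM7 and MCM5 were at 0 in more than 50% of dT libraries. Over 21 comparisons and 205 alternatives, the number of members called stayed within 1.5 times in 171 and moved in 34. A count of 0 that stayed at 0 is among the 171. The main count was above 0 only in the joint test in Bio (2) and for YM115 between screens (1). In the joint test over conditions in Bio, 2 members became 0 with DESeq2 and 0 without the low-count filter. With genes counted in at least 50% of libraries 0 were left. The number was 4 without the library filter, 5 without the replicate block, and 0 to 0 with a run left out. Over all genes, calls there ranged from 0 with DESeq2 to 3458 without the replicate block, against 1119 in the main fit. In dT, 0 became 2 without the low-count filter, 2 without the replicate block and 0 to 1 with a run left out. Over all genes, calls in dT ranged from 19 to 2241, the highest without the replicate block, against 19 in the main fit. For YM115 between screens, 1 became 0 with the 50% filter, 0 without the low-count filter and 2 without the library filter. With a run left out the number was 0 to 0. Over all genes, calls for YM115 between screens ranged from 6 with the 50% filter to 744 with DESeq2, against 310 in the main fit. In Bio, 0 became 1 with total counts as a covariate for each drug (RRM1 for imatinib, RRM2 for trametinib, TYMS for YM115), and 1 without the library filter or with the number of drug portions for trametinib (RRM2) and YM115 (MCM2). RRM1, RRM2 and TYMS were not among the 4 members tested in the main drug fit of Bio, so that the tested sets differed. With total counts as a covariate, 218 of all genes passed for imatinib in Bio, against 41 in the main fit. Nothing particular to the members is read from these counts. DESeq2 called 1 in 5 of 6 drug pair products and 3 in the Bio separate controls. For the listed order, 0 became 1 in Bio without the block and 0 to 1 with a run left out, and 1 in dT without the low-count filter and 0 to 1 with a run left out. In dT the listed order called 1432 of all genes without the low-count filter, against 420 in the main fit. In Bio it called between 7 (DESeq2) and 484 (no low-count filter) of all genes, against 445 in the main fit.

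Signs turned as follows, in log2 fold change. MCM7 in dT with trametinib ranged from -0.56 to 0.20 with a run left out and was 0.24 in single-drug conditions. With YM115 it became -0.10 with DESeq2's size factors and test, -0.30 to 0.45 with a run left out (-0.0074 without run 3), -0.0146 with total counts and -0.12 with drug portions. TYMS in dT with trametinib became -0.0134 without the replicate block. In single-drug conditions MCM5 in dT with imatinib became 0.40, and MCM7 in Bio became -2.01 with imatinib and -0.25 with YM115. Against the separate controls, with a run left out, MCM7 in dT ranged from -1.33 to 0.85, MCM5 in dT from -0.0266 to 11.2 and MCM7 in Bio from -0.83 to 7.09, and MCM7 in Bio became 0.35 with DESeq2's size factors and test. The cause was not tested. With at most 15% mitochondrial counts, 1 dT separate control was left, with 2133 CPM and 10 members, and 1 in Bio with 10. At a minimum of 3 counts the controls held 8 members in dT and 5.67 in Bio. Counts over all genes for the drug effects ranged widely, from 0 to 510 for imatinib, 0 to 468 for trametinib and 0 to 503 for YM115 in dT, and from 0 to 218, 182 and 203 in Bio.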
